A study of Mus musculus with 2 samples.

Results

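Modulated vascular smooth muscle cells (VSMCs) in the G2 and M phases of the cell cycle were described in a day 5 culture of primary aortic VSMCs from wildtype mice. A barcode counted as a cell if it had 3000 or more UMIs in 300 or more genes, with less than 20% of UMIs from mitochondrial genes. A member was a cell that held at most 1 UMI of *Myh11*, the smooth muscle myosin heavy chain, and at least 10 UMIs of the mitosis genes *Ube2c*, *Ccnb1*, *Plk1*, *Cdc20* and *Aurka* together (the mitosis sum). There were 1791 members among 11690 cells kept, 891 of 4866 in replicate 1 and 900 of 6824 in replicate 2. The data were 2 single-cell RNA-seq libraries, labelled biological replicates, of untreated cells grown in full medium for 5 days, and there was 1 condition. Per the methods, a cell preparation pools the thoracic aortae of several mice, and the age of the mice used for sequencing is not given in the sources used here. The libraries held 127949633 and 132561822 UMIs in all. The wildtype cells carried no lineage reporter, so that their label as smooth muscle rests on the source tissue and on expression.

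In G2 and M phase, cyclin B (*Ccnb1*) activates the kinase CDK1, Polo-like kinase 1 (*Plk1*) and Aurora A (*Aurka*) build the spindle, and *Cdc20* activates the anaphase-promoting complex (APC/C), which uses the ubiquitin-conjugating enzyme UBE2C to mark mitotic proteins for degradation. Many of these genes are transcribed late in the cycle through the DREAM, B-MYB and FOXM1 regulators, which act at CHR elements and CCAAT boxes close to the transcription start. Modulated VSMCs have reduced levels of contractile proteins and can divide, whereas contractile VSMCs of the adult aorta rarely do. The cGMP pathway is known to affect VSMC growth, in either direction depending on the receptor and the setting, and its receptors differ between contractile and modulated cells, which is why its genes were followed here too.

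The stretches with CHR letters are shown for 4 genes of the rule, whose joint level was fixed by the choice of the members, and for 3 other mitosis genes, so that a reader can see the sequence such regulators are known to use. Promoters from RefSeq (GRCm38.p6, 250 bases before to 50 after each start) were searched for TTTGAA on both strands (TTCAAA on the other strand), for TTTAAA and TTCGAA, which read alike on both strands, and for CCAAT or ATTGG. The 30-base stretches below lie before the RefSeq start, run 5′ to 3′ on the strand of the gene and have the CHR letters in capitals. They are at chr2:164769888-164769917 (+) for *Ube2c*, chr13:100786511-100786540 (-) for *Ccnb1*, chr7:122159394-122159423 (+) for *Plk1*, chr4:118437344-118437373 (-) for *Cdc20*, chr10:69352966-69352995 (-) for *Cdk1*, chr11:99024195-99024224 (-) for *Top2a* and chr7:80294434-80294463 (+) for *Prc1*.
Ube2c: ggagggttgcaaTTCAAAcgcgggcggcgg
Ccnb1: agcggcccggggTTTAAAcctaagcccggc
Plk1: gcgggtttgtatTTTAAAtccccgcggcca
Cdc20: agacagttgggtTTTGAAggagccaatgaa
Cdk1: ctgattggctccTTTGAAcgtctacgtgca
Top2a: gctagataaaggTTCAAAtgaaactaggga
Prc1: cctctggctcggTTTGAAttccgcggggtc

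CHR letters stood in the promoters of all 5 mitosis genes of the rule, and so did CCAAT letters. Among 89 promoters found for 80 of 102 listed mitosis genes, 64.0% held CHR letters, 65.2% held CCAAT letters and 48.3% held both. Of all 32851 promoters of this length, 28.8% held CHR letters, 37.4% CCAAT letters and 11.3% both. Promoters of DNA replication genes (34 promoters of 29 of 37 genes) held CHR letters in 32.4%, CCAAT letters in 55.9% and both in 23.5%, and those of contractile genes (14 promoters of 13 of 15 genes) in 21.4%, 57.1% and 14.3%. CCAAT letters thus stood in the majority of promoters of the mitosis, replication and contractile lists. Within the mitosis lists, the APC/C and cohesin genes held CHR letters in 4 of 20 promoters, a share below that of all promoters, and the spindle genes (25 promoters) in 84.0%. Matrix genes (16 promoters) held CHR letters in 43.8%, CCAAT letters in 31.2% and both in 12.5%. These are matches of letters and say nothing of which factor binds.

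The rule genes describe how the members were picked and were not tested. *Ube2c* was the most abundant of them, at 648.6 CPM (counts per 1000000 summed UMIs of a cell set) in the members of replicate 1 and 729.4 CPM in replicate 2, against 4.87 and 5.21 CPM in non-cycling modulated cells. *Cdc20* was at 284.9 and 289.2 CPM, *Ccnb1* at 232.3 and 243.4 CPM, *Plk1* at 161.6 and 176.2 CPM and *Aurka* at 73.4 and 92.6 CPM. The mitosis sum of the members had a median of 30 in replicate 1 and 25 in replicate 2 and reached 206 and 258. No gap separated the members from other cells, and 781 and 863 cells with little *Myh11* had a sum of 2 to 9 and belonged neither to the members nor to the non-cycling cells. Just inside the threshold, 37 and 48 cells had a sum of 10, with 4.20 and 5.66 mitosis UMIs per 10000. Just outside, 58 and 62 cells had a sum of 9, with 3.54 and 4.82 per 10000. For *Myh11*, 80 and 73 members had 1 UMI, and 31 and 43 cells with the same mitosis sum had 2 UMIs and were left out. Free RNA, read from barcodes with 1 to 100 UMIs, held 4.32 and 3.98 mitosis UMIs per 10000, compared with 14.0 and 15.3 in the members and 0.113 and 0.128 in the non-cycling cells. At the members' median depth this would be 12.8 and 8.30 mitosis UMIs if every UMI of a cell were free RNA.

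**Figure D1:**
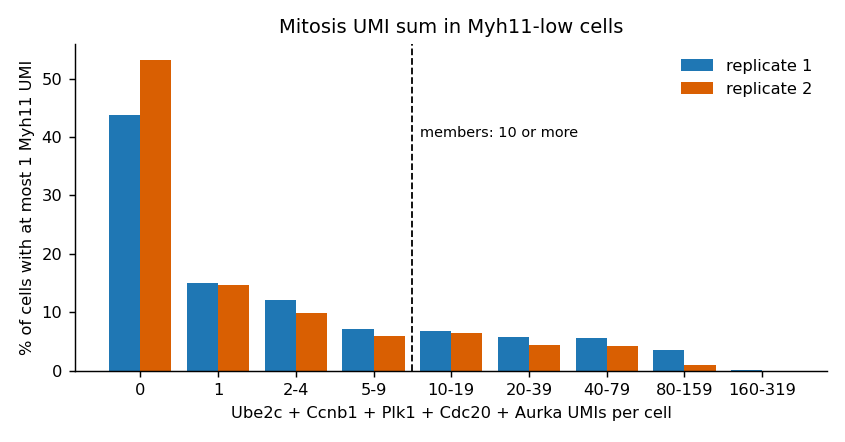
Bars give the percentage of cells with at most 1 *Myh11* UMI in each class of the mitosis sum (x axis, UMIs per cell), in replicate 1 (blue) and replicate 2 (orange), and the dashed line marks the threshold of 10 UMIs. The largest class had a sum of 0 (43.8% and 53.3% of these cells), and no class between 0 and 159 UMIs is empty, so that members and other cells are not separated by a gap.

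Members made up 15.7% ± 3.62 (SD, n = 2) of all cells kept and 19.2% ± 3.98 of the cells with at most 1 *Myh11* UMI. The comparison cells, here called non-cycling modulated cells, had at most 1 *Myh11* UMI, a mitosis sum of at most 1 and at most 1 UMI of *Hist1h1b*, *Hist1h2ap*, *Hist1h2ae*, *Esco2* and *Clspn* together (the S-phase sum). They numbered 2176 and 3372. Members were deeper, with a median of 29580 and 20853 UMIs per cell against 19357 and 14059 in non-cycling cells, a ratio of 1.53 and 1.48. A threshold in UMIs favours deep cells. When members were instead required to have at least 5 mitosis UMIs per 10000 and non-cycling cells at most 0.5, the ratio was 1.31 and 1.28. Mitochondrial UMIs were at a median of 3.52% and 4.76% in members and 3.76% and 5.15% in non-cycling cells.

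Markers of modulated VSMCs were present in the members of both libraries. *S100a4* was at 2535 and 3294 CPM, *Pdgfra*, a PDGF receptor, at 120.3 and 95.5 CPM, and *Lum*, the proteoglycan lumican, at 55.9 and 110.3 CPM. *Lum* was lower in members than in non-cycling cells of each library. The 25 matrix and modulation genes, which include these, summed to 22397 and 19748 CPM in members. They summed to 27690 and 22049 CPM in non-cycling cells with at least 5 *Myh11* UMIs. The contractile gene *Acta2* was found in 100% and 98.6% of members, and *Tagln* in 99.4% and 90.2%. The name modulated thus rests on the *Myh11* threshold. Of the endothelial list, at least 5 UMIs were found in 1.23% and 1.44% of members and in 3.26% and 3.20% of non-cycling cells. The 7 endothelial genes summed to 35.0 and 51.1 CPM in members and to 102.6 and 93.6 CPM in non-cycling cells, *Egfl7* being the most abundant (19.2 and 19.1 CPM in members), and none was at 0. The 7 macrophage genes summed to 67.2 and 8.06 CPM in members and to 28.5 and 44.1 CPM in non-cycling cells. *Lyz2* was the most abundant of them, at 45.7 and 3.83 CPM in members and 19.3 and 33.1 CPM in non-cycling cells, and 4 of them (*Ptprc*, *C1qa*, *C1qb* and *Adgre1*) were at 0 in the members of replicate 2. In replicate 1, 5 members had at least 5 macrophage UMIs. The 4 Schwann genes summed to 19.0 and 25.2 CPM in members, mostly *S100b*, with *Sox10* at 0 in both libraries, and the 4 mesothelial genes to 3.23 and 6.24 CPM, mostly *Krt19*, with *Msln* at 0 in replicate 1 and *Wt1* at 0 in replicate 2.

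The rest of the mitotic programme stood with the rule genes in the members, as a rule built on 5 of its genes would give, and is therefore described without a test. Kinesins and other spindle proteins were higher in members than in non-cycling cells, with a median log2 difference of 6.06 over 26 genes, of which 25 were at least 2-fold higher in both libraries. The median log2 difference of all 12326 genes tested was -0.07, and 5.23% of them were at least 2-fold higher and 1.23% at least 2-fold lower in both libraries. *Prc1*, which bundles the microtubules of the central spindle, was at 582.1 and 552.6 CPM against 7.77 and 8.09 CPM. *Tpx2*, the activator of Aurora A at the spindle, was at 434.4 and 471.0 CPM against 10.6 and 12 CPM. *Hmmr* was at 387.9 and 366.0 CPM against 4.30 and 5.67 CPM. Levels in the 2 libraries lay close together and far from those of non-cycling cells.

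All 21 kinetochore and spindle checkpoint genes were at least 2-fold higher in both libraries (median log2 difference 5.26), led by *Cenpf* (432.2 and 431.4 CPM against 2.86 and 3.11 CPM) and the kinetochore motor *Cenpe* (360.2 and 331.6 CPM against 2.66 and 2.77 CPM). *Cenpa*, the histone variant that marks centromeres, was at 284.1 and 320.1 CPM against 18.2 and 13.9 CPM. The smallest difference in this list was that of the checkpoint protein gene *Bub3*, with a log2 difference of 1.49. All 17 mitotic kinase and cyclin genes were at least 2-fold higher too (median 5.11). *Cks2*, a CDK-binding subunit, was at 406.5 and 540.8 CPM against 18.6 and 26.2 CPM, and *Cdk1* at 347.8 and 442.5 CPM against 9.41 and 11.9 CPM. *Birc5*, the chromosomal passenger survivin, was at 382.3 and 446.5 CPM against 11.8 and 11.2 CPM. *Ccnb2*, a second B-type cyclin, had a smaller log2 difference of 2.58, with 21.7 and 14.0 CPM in non-cycling cells.

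The APC/C and cohesin genes behaved less uniformly. Of 21 genes, 6 were at least 2-fold higher in both libraries, and the median log2 difference was 0.56. *Ube2s*, which extends ubiquitin chains for the APC/C, was at 912.1 and 889.5 CPM against 216.2 and 190.9 CPM. *Fbxo5*, the APC/C inhibitor EMI1, was at 46.7 and 75.2 CPM against 0.742 and 1.01 CPM, and the separase gene *Espl1* had a log2 difference of 5.03. Core subunits of the APC/C differed less from non-cycling cells and not all alike. *Anapc4* was at a log2 difference of -0.05, *Cdc16* at 0.05 and *Anapc5* at 0.20. *Anapc11* was at 172.3 and 145.2 CPM against 112.3 and 94.4 CPM, a log2 difference of 0.56. *Pttg1*, which encodes the separase inhibitor securin, was at 33.1 and 41.0 CPM in members and 30.4 and 39.1 CPM in non-cycling cells, and so did not share the difference of its partner *Espl1*. The 17 condensin and chromatin genes were at least 2-fold higher in both libraries (median 3.13), among them *Top2a*, the topoisomerase that untangles chromosomes, at 718.9 and 648.9 CPM against 10.1 and 8.74 CPM, and *Mki67*, which coats mitotic chromosomes, at 570.0 and 559.5 CPM against 5.46 and 5.32 CPM. *H2afz* was the most abundant of them, at 1346 and 1600 CPM against 299.5 and 317.1 CPM.

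Regulators of this transcription were at lower levels. *Foxm1* was at 50.9 and 48.0 CPM against 3.36 and 2.84 CPM, and *Mybl2*, the gene of B-MYB, at 10.6 and 9.39 CPM against 0.306 and 0.324 CPM. *Lin9* and *Lin54*, subunits of the complex that B-MYB joins, had log2 differences of 3.36 and 2.43. The pocket protein gene *Rbl2* did not stand out, at 11.3 and 11.6 CPM against 9.95 and 12.8 CPM. Median log2 difference over the 13 genes tested was 2.43.

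**Figure D2:**
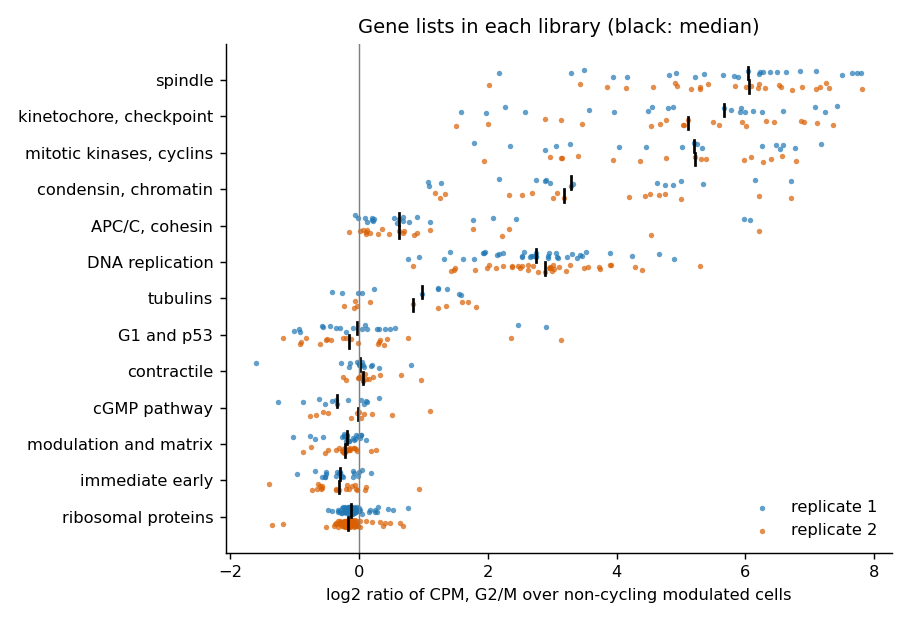
Each point is a gene, placed by its log2 ratio of CPM in G2/M over non-cycling modulated cells (x axis) and by its list (y axis), in replicate 1 (blue) and replicate 2 (orange), and black strokes give the median of a list in a library. The mitosis and DNA replication lists lie right of 0, while contractile, cGMP, matrix, immediate early and ribosomal genes gather around or slightly left of it.

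The label G2/M covers the members only in part, since many also carried S-phase transcripts. Non-cycling cells were limited to an S-phase sum of at most 1 UMI, and members were not. Higher levels of replication and histone genes in members are thus in part given by the rule, and are described without a test. All 37 DNA replication genes were higher in members than in non-cycling cells in both libraries, 35 of them at least 2-fold. Their median log2 difference was 2.73, and 40.3% of all genes tested were higher in both libraries. The ribonucleotide reductase subunit *Rrm2* was at 134.1 and 136.8 CPM against 12.4 and 10.3 CPM, and the replication clamp *Pcna* at 43.9 and 61.7 CPM against 9.34 and 11.9 CPM. Of 28 other histone genes tested, 14 were at least 2-fold higher and 3 at least 2-fold lower in both libraries, and their median log2 difference was 1.93. The linker histone genes *Hist1h1a* and *Hist1h1e* had log2 differences of 5.88 and 2.55, and *Hist1h2bc* was lower in members, at 43.5 and 64.6 CPM against 103.9 and 161.5 CPM. Counts of histone genes are uncertain, because most histone mRNAs end without the poly(A) tail that the library preparation captures and their copies share sequence.

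Members split along the S-phase sum. It was at least 10 UMIs in 325 and 359 members and at most 1 UMI in 233 and 232. Since these genes chose the split, their own levels are no result, and the following values are descriptions of pooled cells in 2 libraries. *Pcna* was at 70.7 and 92.7 CPM in members with a high S-phase sum and at 22.8 and 32.0 CPM in those with a low sum. *Top2a* went from 801.6 and 764.9 CPM to 358.2 and 233.4 CPM, and *Aurkb*, the kinase of the chromosomal passenger complex, from 96.4 and 122.6 CPM to 33.7 and 33.0 CPM. In both libraries the high-sum members thus had the higher levels of these genes. Other mitosis genes had other orders. *Cenpa* was at 128.8 and 168.4 CPM in members with a high S-phase sum and at 391.2 and 452.9 CPM in those with a low sum, *Ccnb2* at 61.5 and 68.2 CPM against 155.3 and 145.2 CPM, and the cytokinesis kinesin *Kif20a* at 64.5 and 72.8 CPM against 177.0 and 173.3 CPM. *Cenpf* was highest in between, at 632.5 and 636.4 CPM in members with a sum of 2 to 9, against 250.7 and 308.5 CPM at a high and 383.7 and 314.3 CPM at a low sum. The mitosis genes of the rule chose the members and are given as values. *Cdc20* was at 121.7 and 138.3 CPM at a high sum, 391.7 and 393.4 CPM at a sum of 2 to 9 and 394.7 and 435.5 CPM at a low sum. *Ube2c* was highest in between, at 919.0 and 1026 CPM, with 456.9 and 578.0 CPM at a high and 474.3 and 500.3 CPM at a low sum, and so was *Aurka*, at 107.3 and 128.5 CPM, with 49.3 and 74.7 CPM and 51.4 and 63.7 CPM at the ends. *Cdk1* was also highest in between, at 421.2 and 528.4 CPM in the 333 and 309 members with an S-phase sum of 2 to 9, and lowest at a low sum, at 198.9 and 240.4 CPM.

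Depth differed along this split. Members with a high S-phase sum had a median of 30467 and 22139 UMIs per cell, and those with a low sum 21334 and 14804 UMIs. A low sum is more likely in a shallow cell, and the part of depth in the split was not tested. *Npr2* was at 33.9 and 51.6 CPM at a high sum and 46.5 and 54.4 CPM at a low sum. *Acta2*, at 3837 and 2161 CPM against 3451 and 2332 CPM, was ordered differently in the 2 libraries.

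**Figure D3:**
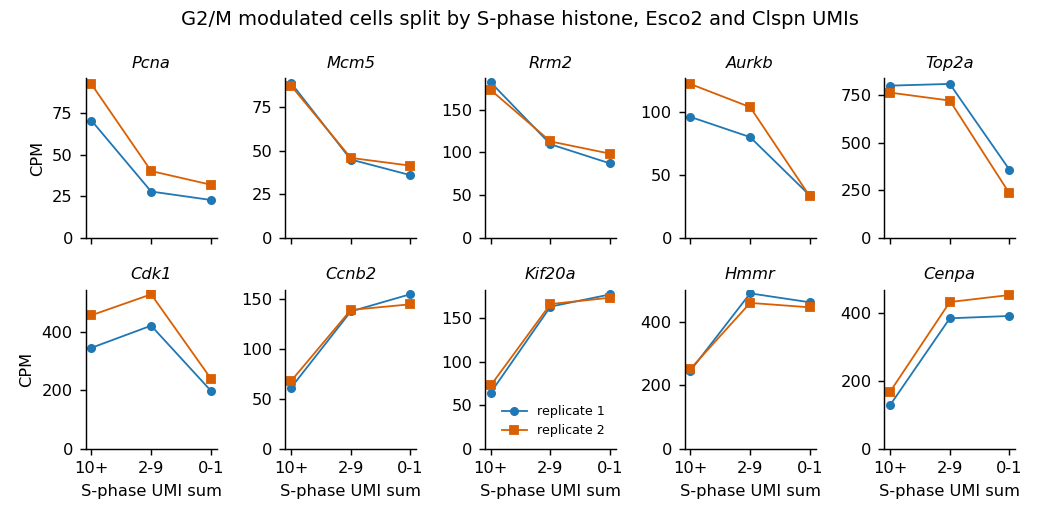
Each panel gives the level of a gene (CPM, y axis from 0) in members with an S-phase sum of 10 or more, 2 to 9, and 0 to 1 UMIs (x axis), in replicate 1 (blue circles) and replicate 2 (orange squares). *Pcna*, *Mcm5*, *Rrm2*, *Aurkb* and *Top2a* are lowest at the low sum, and *Ccnb2*, *Kif20a* and *Cenpa* are highest there, in both libraries.

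Outside the cell cycle lists, members were compared with non-cycling modulated cells to ask what else goes with division in cells of the same culture. UMIs were summed per library and cell set, and the sums were tested with edgeR with the library as a block and Benjamini-Hochberg adjustment over all 12326 genes. Of these, 1774 (14.4%) were higher and 1703 (13.8%) lower in members at an adjusted p under 0.05. Cell sets of a library share their culture, so the p-values measure the spread of differences between cell sets over 2 cultures, pooled over all 5 sets, the small S-phase sets included. With only the 4 sums of the 2 sets compared, 6825 genes were called in place of 3477. Without the library term, 745 genes were higher and 79 lower. Of the 39 genes of the G1 and p53, tubulin, contractile, matrix, immediate early and cGMP lists and of the largest falls outside lists that passed the test, 12 passed it without the library term, namely *Ccnd2*, *Btg1*, *Cdkn2c*, *Cdkn2d*, *Tubb5*, *Tubb4b*, *Tuba1b*, *Tuba1c*, *Tubb6*, *Tubg1*, *Sox4* and *Psen2*. The tubulin genes, *Cdkn2c* and *Cdkn2d* among them may follow the rule genes. When non-cycling cells were matched to members by UMI count (882 and 898 pairs), 33 of the 39 kept their call. In 6 other settings (DESeq2, RLE normalization, no filter on low counts, a mitosis sum of at least 20, the top 5% of UMIs left out and *Myh11* at 0) 1 of the 39 lost it each time, namely *Mfap2*, *Pde5a*, *Col1a1* or *Col5a1*. All 39 kept it without cells that held at least 5 UMIs of endothelial or macrophage markers, an alternative added after seeing the data. Of the 7 endothelial genes, *Pecam1*, *Cdh5*, *Cldn5* and *Tie1* were called lower in members. With cells matched by UMI count *Pecam1* and *Cdh5* lost the call (adjusted p = 0.14 and 0.23), and without the library term all 4 lost it (adjusted p = 0.14 to 0.46). For members with an S-phase sum of at most 1, a setting also added after seeing the data, 6 of the 39 genes lost their call (*Pde5a*, *Postn*, *Cdk4*, *Cdkn1b*, *Mfap2* and *Comp*), and *Ier2*, *Ctgf* and *Cyr61* were called lower. Of the genes said below not to pass, 12 passed when only 4 sums were fitted and 8 with no filter on low counts, with *Npr1*, *Cald1*, *Col1a2*, *Fn1*, *Lum*, *Ier2*, *Fos* and *Cdkn1a* passing in both. With cells matched by UMI count *Fn1* and *Ccng1* passed, and *Ier2* passed with DESeq2, with RLE normalization, with a mitosis sum of at least 20, with the top 5% of UMIs left out and without cells with endothelial or macrophage markers.

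Of 20 genes of the G1 and p53 list, which holds inhibitors and partners of the G1 kinases, 4 rose and 6 fell, beside 14.4% and 13.8% of all genes tested (with *Cdkn2c*, *Cdkn2d*, *Cdkn1b*, *Ccnd1*, *Btg1*, *Cdkn2b* and *Cdkn1c* named after their values were seen). *Cdkn2d*, the INK4 inhibitor p19, was at 97.4 and 134.8 CPM in members against 13.0 and 15.3 CPM in non-cycling cells, a log2 difference of 2.97 ± 0.11 (SE, adjusted p = 1.48e-07). Its relative *Cdkn2c* was at 81.4 and 92.9 CPM against 14.7 and 18.1 CPM. *Cdkn2b*, the INK4 inhibitor p15, was lower, at 12.8 and 21.6 CPM against 25.9 and 48.9 CPM, a log2 difference of -1.16 ± 0.21 (adjusted p = 0.0040). INK4 genes of 1 family thus lay on opposite sides, though *Cdkn2c* and *Cdkn2d* may follow the rule genes. How far the choice of cells by cell cycle genes gave these differences was not tested. *Ccnd2*, the most abundant D cyclin here, was at 403.6 and 463.7 CPM against 596.5 and 654.1 CPM (log2 difference -0.59 ± 0.06, adjusted p = 0.00019), and *Ccnd1* also fell. The antiproliferative genes *Btg1* and *Btg2* fell by 0.98 and 0.60 on the log2 scale. *Cdk4* (0.38) and *Cdkn1b* (0.54), the gene of p27, rose modestly. *Cdkn1c*, the gene of p57, fell by 0.96, a call that was lost with cells matched by UMI count (adjusted p = 0.44). *Cdkn1a*, the p53 target p21, was at 316.3 and 361.0 CPM against 215.4 and 286.6 CPM, and this difference did not pass the test (adjusted p = 0.089, log2 difference 0.39 with a 95% interval from 0.04 to 0.74). With cells matched by UMI count the log2 difference was 0.025 (adjusted p = 0.92).

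Of 11 genes of tubulins, the building blocks of the spindle, 6 rose and none fell, beside 14.4% of all genes tested that rose. As parts of the spindle they may follow the rule genes, and how far the choice of cells gave these rises was not tested. *Tubb5* was at 1777 and 1674 CPM against 903.2 and 933.6 CPM (log2 difference 0.85 ± 0.10, adjusted p = 0.00034). *Tubb4b* and *Tuba1b* rose by 1.17 and 1.23 on the log2 scale. *Tubb6*, *Tuba1c* and the centrosomal gamma-tubulin gene *Tubg1*, named after their values were seen, rose by 1.63, 1.47 and 1.54. *Tuba1a*, the second most abundant tubulin gene, was at 1183 and 1085 CPM against 1145 and 1110 CPM and did not pass the test. Reads of tubulin genes may be split between similar copies.

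Of 15 contractile genes, 1 rose and none fell, beside 14.4% and 13.8% of all genes tested, and their median log2 difference was -0.02. The 15 genes summed to 13178 and 7539 CPM in members and to 13207 and 7591 CPM in non-cycling modulated cells. In non-cycling cells with at least 5 *Myh11* UMIs they summed to 39691 and 39157 CPM. *Myh11*, used by the rule, was at 2.84 and 3.59 CPM in members and 5.54 and 4.52 CPM in non-cycling modulated cells. Members were deeper, so the ceiling of 1 *Myh11* UMI was stricter for them, and its part in these sums was not tested. *Acta2*, smooth muscle actin, was at 3876 and 2178 CPM against 3662 and 2112 CPM (log2 difference 0.01, 95% interval -0.52 to 0.54), and *Tagln*, the gene of SM22, at 1933 and 1106 CPM against 1971 and 1105 CPM (-0.07, interval -0.74 to 0.60). The difference between the libraries was larger than that between the cell sets for both genes. *Tpm1* was at 1864 and 1240 CPM against 1860 and 1258 CPM, and *Cald1* at 1949 and 1150 CPM against 2155 and 1318 CPM, neither past the test. *Smtn*, the gene of the actin-binding protein smoothelin, was the gene that rose, at 97.7 and 81.9 CPM against 55.9 and 42.1 CPM (log2 difference 0.82 ± 0.13, adjusted p = 0.0021). *Smtn* was at 178.8 and 170.8 CPM in G2/M cells with at least 5 *Myh11* UMIs and at 120.6 and 119.5 CPM in non-cycling cells with as much *Myh11*.

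Of 25 matrix and modulation genes, 5 fell and none rose, a share near the 13.8% of all genes tested that fell, and 20 were lower in both libraries, a direction that 43.3% of all genes tested had. The median log2 difference of the list was -0.23. *Sparc* was at 3718 and 2559 CPM against 4228 and 2948 CPM (log2 difference -0.25 ± 0.07, adjusted p = 0.022), and the collagen genes *Col1a1* and *Col5a1* fell by 0.28 and 0.23 on the log2 scale. *Tnfrsf11b*, which encodes the decoy receptor osteoprotegerin, was at 23.3 and 55.0 CPM against 39.5 and 100.3 CPM (log2 difference -0.87 ± 0.23, adjusted p = 0.022), and *Postn*, the gene of periostin, fell by 0.51. *Mgp*, the inhibitor of calcification, was at 2914 and 3735 CPM against 3428 and 4771 CPM, and *Lum* at 55.9 and 110.3 CPM against 114.2 and 185.8 CPM. Both were lower in each library but did not pass the test (adjusted p = 0.54 and 0.18), nor did *Col1a2* (log2 difference -0.29) and *Fn1* (-0.27). The calls of *Sparc*, *Col1a1*, *Col5a1* and *Tnfrsf11b* held with cells matched by UMI count, and that of *Postn* did not (adjusted p = 0.18).

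Of 21 immediate early genes, which respond within minutes to serum or to handling of cells, 6 fell, none rose, and 18 were lower in both libraries, beside 13.8% of all genes tested that fell and 43.3% that were lower in both libraries (the 6 were named after their values were seen). *Atf3* was at 16.4 and 5.26 CPM against 32.1 and 13.9 CPM (log2 difference -1.23 ± 0.21, adjusted p = 0.0036). *Dusp1*, a phosphatase of MAP kinases, was at 82.3 and 106.6 CPM against 119.4 and 162.3 CPM (-0.63 ± 0.16, adjusted p = 0.021), and *Zfp36*, which speeds mRNA decay, at 119.9 and 63.8 CPM against 170.5 and 99.1 CPM (-0.63 ± 0.14, adjusted p = 0.010). *Fosb*, *Ier3* and *Jund* fell by 0.68, 0.39 and 0.31 on the log2 scale. The call of *Fosb* was lost with cells matched by UMI count (adjusted p = 0.11). *Fos* was at 304.6 and 218.2 CPM against 391.3 and 328.8 CPM and *Egr1* at 666.7 and 431.4 CPM against 667.3 and 448.9 CPM. These 2 genes, *Junb* and *Ier2* did not pass the test.

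Receptors of the cGMP pathway did not pass the test in either direction. *Npr2*, the gene of the CNP receptor GC-B, was at 39.9 and 53.8 CPM in members and 39.2 and 52.4 CPM in non-cycling cells. The log2 ratios of these CPM were 0.027 and 0.038. The log2 difference fitted after TMM normalization was -0.02, with a 95% interval from -0.22 to 0.18. *Npr3*, the clearance receptor, was at 251.1 and 177.7 CPM against 230.2 and 178.8 CPM (0.01, interval -0.52 to 0.53). *Npr1*, the gene of the ANP receptor GC-A, was close to absent, with 19 and 17 UMIs in the summed members (0.675 and 0.836 CPM). The summed non-cycling cells held 74 and 74 UMIs (1.61 and 1.41 CPM), and the difference did not pass the test (adjusted p = 0.070). The study reports *Npr1* mainly in endothelial cells, and endothelial UMIs were found in a smaller share of members than of non-cycling cells. Without cells with endothelial or macrophage UMIs the log2 difference was -1.06 (adjusted p = 0.33). With cells matched by UMI count it was -0.56 (adjusted p = 0.38). The part of endothelial cells in these values was not tested. The subunits of the NO-sensitive guanylyl cyclase, *Gucy1a1* (17.6 and 26.3 CPM), *Gucy1a2* (6.43 and 7.37 CPM) and *Gucy1b1* (19.3 and 19.4 CPM), had log2 differences of -0.30, -0.25 and 0.24, none past the test.

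In all, 3 of the 12 genes tested in this pathway fell and none rose, beside 13.8% of all genes tested that fell, and 2 of the 3 calls were lost with matched cells. The phosphodiesterase gene *Pde3a* was at 53 and 53.8 CPM against 96.6 and 85.7 CPM (log2 difference -0.82 ± 0.17, adjusted p = 0.0080), and kept its call with cells matched by UMI count (adjusted p = 0.013). *Pde5a*, which degrades cGMP selectively, was at 82.4 and 68.5 CPM against 118.5 and 96.2 CPM (-0.56 ± 0.16, adjusted p = 0.034). *Prkg1*, the gene of cGMP-dependent protein kinase I, was at 24.9 and 17.8 CPM against 33.3 and 26.2 CPM (-0.54 ± 0.13, adjusted p = 0.017). With cells matched by UMI count, neither *Pde5a* (adjusted p = 0.13) nor *Prkg1* (adjusted p = 0.097) passed the test. *Pde1a* was at 34.6 and 20.3 CPM against 44.0 and 19.1 CPM and *Pde10a* at 15.9 and 3.05 CPM against 15.1 and 3.32 CPM, with larger differences between the libraries than between the cell sets. *Prkg2* was at 6.93 and 6.39 CPM against 5.59 and 2.98 CPM, and *Nppc*, *Pde2a* and *Pde9a* had too few UMIs to be tested.

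**Figure D4:**
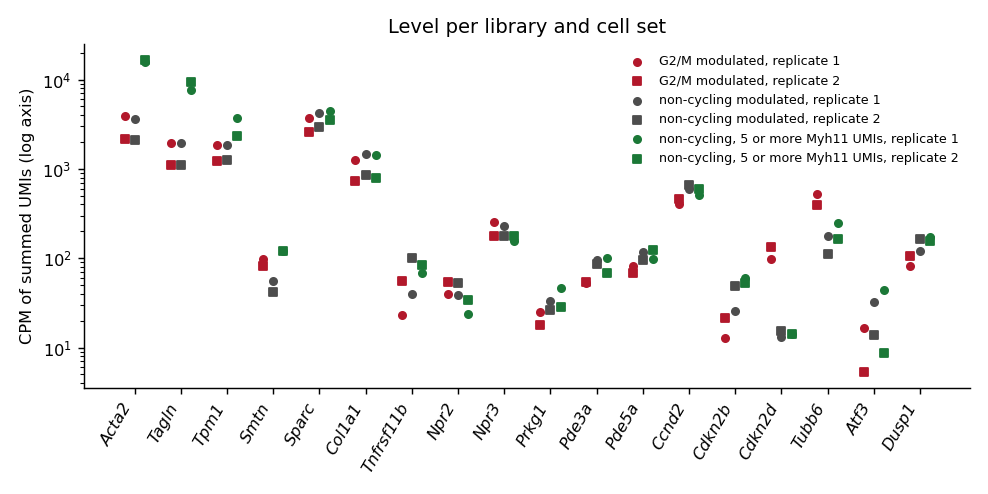
Points give the level (CPM of summed UMIs, log axis) of 18 genes in G2/M modulated cells (red), non-cycling modulated cells (grey) and non-cycling cells with at least 5 *Myh11* UMIs (green), with circles for replicate 1 and squares for replicate 2. *Acta2* and *Tagln* coincide in both modulated sets within a library and lie higher in the green set, *Pde3a* and *Cdkn2b* are lower in red than in grey, and *Cdkn2d* and *Tubb6* are higher.

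Among genes outside the lists, the 8 largest rises were those of *Aspm*, *Cep55*, *Depdc1a*, *Cdca2*, *Neil3*, *Prr11*, *Parpbp* and *Pimreg*, with log2 differences of 6.07 to 7.46. They are cell cycle genes in large part, follow the rule genes and are given without a test. *Aspm*, a protein of the spindle poles, was at 100.4 and 126.3 CPM against 0.502 and 0.725 CPM.

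The largest falls were smaller, with log2 differences of -1.18 to -1.75, and held secreted and matrix proteins beside others. *Cemip*, which encodes a hyaluronan-degrading protein, was at 196.5 and 91.8 CPM in members and at 439.5 and 268.9 CPM in non-cycling cells (log2 difference -1.41 ± 0.09, adjusted p = 6.7e-06). *Sox4*, a transcription factor gene, was at 71.7 and 82.0 CPM against 162.4 and 206.2 CPM (-1.31 ± 0.09, adjusted p = 6.3e-06), and *Clu*, the gene of clusterin, at 33.9 and 21.7 CPM against 78.7 and 54.0 CPM (-1.33 ± 0.14, adjusted p = 0.00020). *Slfn5*, of the interferon-responsive Schlafen family, was at 27.2 and 17.2 CPM against 85.2 and 56.5 CPM. *Psen2*, the gene of presenilin 2, was at 11.6 and 12.1 CPM against 26.2 and 27.3 CPM. *Kazn* and the matrix genes *Comp* and *Mfap2* fell by 1.23, 1.18 and 1.25 on the log2 scale, and the call of *Mfap2* was lost with cells matched by UMI count (adjusted p = 0.076).

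Of 94 tested genes with names of ribosomal proteins, 49 fell and 4 rose, beside 13.8% and 14.4% of all genes tested, with a median log2 difference of -0.20 beside -0.07 over all genes. The 4 that rose were *Rps6kb1*, *Rps6ka5*, *Rps6ka4* and *Rps19bp1*, of which the first 3 are kinase genes and none encodes a ribosomal protein. Of 13 mitochondrial genes, 6 fell and none rose, beside the same 13.8% and 14.4%, and their median was -0.17. None of 7 YAP target genes passed the test, *Ctgf* at 859.5 and 962.9 CPM against 855.2 and 1035 CPM and *Cyr61* at 410.6 and 620.2 CPM against 418.7 and 625.2 CPM.

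S-phase cells for comparison had an S-phase sum of at least 10, a mitosis sum of at most 1 and at most 1 *Myh11* UMI, and numbered 22 and 34 in the 2 libraries. With a mitosis sum under 10 there were 207 and 286. The smaller set was not free of mitosis transcripts, since its median mitosis sum was 1 and *Top2a* was at 288.9 and 219.6 CPM in it, against 10.1 and 8.74 CPM in non-cycling cells. Members against these cells had 163 genes higher (1.32% of those tested) and 69 lower (0.56%), and without the library term 80 and 28. The cells were picked by cell cycle genes on both sides, so those are given as levels only. *Cdc6* and *Cdt1*, which license replication origins, were at 5.83 and 7.82 CPM and at 10.1 and 9.49 CPM in members, against 47.9 and 47.3 CPM and 59.8 and 33.8 CPM in S-phase cells. The G1/S cyclin *Ccne2* was at 10.4 and 16.5 CPM against 78.6 and 89.5 CPM. *Rrm1* and *Dut*, which supply nucleotides, were nearly level, with log2 differences of 0.34 and 0.07. *Fbxo5* was level too, at -0.20. Outside the lists, *Knstrn*, *Prr11*, *Aspm* and *Cdca3* led the genes higher in members and *Dtl*, *Orc1*, *Zfp367* and *Tmem121* those higher in S-phase cells, *Dtl* at 33.7 and 21.8 CPM against 124.8 and 87.8 CPM.

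The p53 targets *Ccng1* and *Cdkn1a* were lower in S-phase cells than in members. *Ccng1* was at 162.5 and 227.8 CPM in non-cycling cells, against which members did not pass the test (95% interval of the log2 difference -0.17 to 0.16), though with cells matched by UMI count it was called lower in members (log2 difference -0.23, adjusted p = 0.047). Members were at 177.9 and 224.0 CPM and S-phase cells at 70.1 and 86.1 CPM (log2 difference 1.40 ± 0.10, adjusted p = 0.00027), and *Cdkn1a* at 316.3 and 361.0 CPM against 114.5 and 113.2 CPM (1.61 ± 0.20, adjusted p = 0.0041). When members were matched to the S-phase cells by UMI count, *Ccng1* kept its call and *Cdkn1a* did not (adjusted p = 0.20). Against S-phase cells with a mitosis sum under 10, a larger set chosen after seeing the data, the log2 differences were 0.78 for *Ccng1* and 0.48 for *Cdkn1a* (adjusted p = 0.00043 and 0.14). Against the smaller set of S-phase cells, 3 of 11 tubulin, 4 of 20 G1 and p53 and 1 of 15 contractile genes were called higher in members. None of the genes of these lists was called lower. No gene of the cGMP, matrix or immediate early lists passed the test against S-phase cells. Of all genes tested, only 1.32% were called higher and 0.56% lower, so few calls would be found in lists of this size.

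Whether division goes with other genes in cells that keep *Myh11* was asked with 118 and 241 G2/M cells and 244 and 415 non-cycling cells with at least 5 *Myh11* UMIs. The difference between G2/M and non-cycling cells was compared between cells with little and with much *Myh11* as an interaction. In edgeR, 0 of 12326 genes passed, 523 (4.24%) had an unadjusted p under 0.05, and DESeq2 called 5. The contractile list had a median interaction of 0.40 on the log2 scale, beside -0.04 for all genes tested. *Acta2* was at 12358 and 11310 CPM in G2/M cells with much *Myh11* and at 15523 and 16712 CPM in non-cycling cells with much *Myh11*, so that it was lower in the dividing cells of both libraries, whereas the modulated sets were level. This interaction was 0.54 (unadjusted p = 0.14). *Myh11* itself, used by the rule, was at 457.1 and 434.2 CPM against 632.6 and 656.6 CPM there, and G2/M cells with much *Myh11* were deeper (median 37304.5 and 25653 UMIs against 23588.5 and 17694), so that the threshold of 5 UMIs admitted cells of lower *Myh11* share. The ceiling of 1 *Myh11* UMI was in turn stricter for the members, which were deeper than non-cycling modulated cells. The part of these thresholds in the values of *Acta2* was not tested. The smallest unadjusted p-values outside the lists were those of *Brip1*, *Gm13889*, *Haus8*, *Uhrf2*, *Coq8a* and *Cntln*. *Brip1*, the gene of a DNA repair helicase, was at 28.3 and 34.1 CPM in members and 25.4 and 30.7 CPM in G2/M cells with much *Myh11*, but at 2.84 and 2.54 CPM in non-cycling modulated cells and 9.34 and 12.4 CPM in non-cycling cells with much *Myh11* (adjusted p = 0.12).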

How the data were processed

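Single-cell libraries (10x Genomics 3′ v3) were made from 2 cultures. The authors aligned reads with Cell Ranger (version 3.0.2 per the submitters' processing notes; the headers of the deposited matrices name 3.0.2 for replicate 1 and 3.1.0 for replicate 2) to mm10 and deposited unfiltered UMI counts of 31053 genes per barcode. Filters on genes, UMIs and mitochondrial share follow the study. The 2 libraries share 9 kept barcodes, 1 of them a member in both, and doublets were kept and not called. The members and gene lists were chosen with earlier results of these data known.

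Counts were summed per library for 5 cell sets (10 sums), without the 11 genes of the rule. edgeR 4.0.16 in R 4.3.3 (TMM, filterByExpr, quasi-likelihood test, cell set plus library) gave log2 differences, SE and 95% intervals, and DESeq2 1.42.0 served as an alternative. Differences between the libraries correlated between all cell sets (r = 0.20 to 0.83), and both sets of a comparison come from the same culture, so the library was a block. Tests were run on simulated data first, in which gene-wise spread gave more false calls than nominal, so calls close to 0.05 are uncertain. Named genes were those of the rule, all cGMP genes, up to 5 of the most abundant genes of each list, and, outside lists, the 8 largest rises and falls with at least 20 CPM, 4 and 4 against S-phase cells and 6 interactions. All other genes named in the text were chosen after their values were seen. CPM are per 1000000 UMIs of a sum, not per length, and carry no TMM scaling. A fitted log2 difference near 0 can therefore differ in sign from the CPM. Intervals and SE cover spread between sums only.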

Additional observations from a re-analysis of the deposited data

Results flagged for a closer look

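Outside the filter, 9 barcodes of replicate 1 and 6 of replicate 2 had a mitosis sum of at least 10 and at most 1 *Myh11* UMI, which no comparison above used. All of them had under 3000 UMIs, and none had 20% or more mitochondrial UMIs.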

How the results depend on the processing

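With 2 libraries, counts of genes could not be given without a library, since no residual degrees of freedom remain, and the share of members without 1 library ranged from 13.2% to 18.3%. Against non-cycling cells, 745 genes were higher and 79 lower with no replicate block, all of them among those called with the block, and 3380 and 3445 when 4 sums were fitted alone. For members with an S-phase sum of at most 1, 881 genes were lower, and 1826 of the 3477 calls in both directions were kept. Against S-phase cells, 80 genes were higher and 28 lower with no replicate block, 277 and 107 with no filter on low counts, 103 higher with cells matched on UMIs, 361 and 311 against S-phase cells with a mitosis sum under 10, and 163 lower with DESeq2. For the interaction with *Myh11*, DESeq2 called 5 genes higher, no filter 2 higher and 1 lower, and a threshold of 10 *Myh11* UMIs 2 higher. With a mitosis sum of at least 20, members were 10.2% of cells.

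Log2 differences of genes without a call changed sign as follows, and no called gene named in the text did. *Npr2* was at 0.055 with a mitosis sum of at least 20, 0.031 with 4 sums and 0.11 for members with an S-phase sum of at most 1. *Npr3* was at -0.010 with no filter, -0.041 with matched cells, -0.018 with *Myh11* at 0, -0.016 without cells with endothelial or macrophage UMIs and -0.26 at a low S-phase sum. *Gucy1a1* was at 0.13 at a low S-phase sum, *Pde1a* at 0.085 with matched cells, and *Pde10a* at 0.090 with matched cells and 0.030 with 4 sums. *Acta2* was at -0.0053 with no filter, -0.0097 without cells with endothelial or macrophage UMIs and -0.029 at a low S-phase sum, and *Egr1* at 0.0030 with matched cells. *Cdkn1a* was at -0.41 at a low S-phase sum. *Ccng1* was at 0.047 with a sum of at least 20, 0.052 with 4 sums and 0.18 at a low S-phase sum. The causes were not tested. The settings on a low S-phase sum, on S-phase cells with a sum under 10 and on endothelial or macrophage UMIs were added after seeing the data.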
